A study of Mus musculus with 12 samples.

Results

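The 10 genes described here encode core transcription factors of the heart and 1 cofactor of them: the homeodomain factor Nkx2-5, the GATA factors Gata4 and Gata6, the T-box factors Tbx5 and Tbx20, the basic helix-loop-helix factor Hand2, the TEA domain factor Tead1, the MADS box factor Srf with its coactivator Myocd, and the zinc finger factor Prdm16. They were chosen by name. H3K27ac regions were taken as theirs if any base lay in the gene body of GENCODE M21 extended by 5 kb on each side (GRCm38). This gave 102 of the 53754 regions listed for control CMs and 85 of the 45521 regions listed for RIP140-null CMs.

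The study asked how the loss of RIP140, the nuclear receptor corepressor encoded by Nrip1, alters H3K27ac in cardiomyocytes (CMs). The antibody-directed nuclease method CUT&RUN was used for this. Mice homozygous for floxed Nrip1 carried Cre recombinase driven by the Nkx2.5 promoter (csNrip1-/-, genotype Nrip1 f/f Cre+, here KO) or lacked it (littermate controls, genotype Nrip1 f/f Cre-). Both genotypes thus carried the floxed allele, and neither Cre without floxed Nrip1 nor an untouched Nrip1 locus was part of the comparison. All mice were males of 10 to 12 weeks. Their CMs were obtained with Langendorff perfusion and a slow spin. Input was 200000 CMs per experiment, and reads were paired at 40 bp. Each genotype had 3 H3K27ac and 3 IgG libraries, 12 in all. Each genotype was deposited as 1 list of the regions found in at least 2 of 3 H3K27ac replicates. The lists give positions and no signal, so the depth behind a region is unknown, no value has a replicate error and no test between genotypes could be made.

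Cardiac transcription factors bind side by side at the enhancers and promoters of contractile and metabolic genes, and they regulate each other's genes. H3K27ac is placed by histone acetyltransferases at active enhancers and promoters, and genes that define a cell type often lie under wide stretches of it. RIP140 is recruited by nuclear receptors and brings corepressors and histone deacetylases with it, so H3K27ac is a mark on which its loss can be read.

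The sequences below are shown because H3K27ac covered them in full in both genotypes: each is the promoter of 1 of the 10 genes just upstream of its RefSeq start site (RefSeq, GRCm38.p6). Of the 10 genes, 5 were matched in the RefSeq promoter table: Nkx2-5, Tbx20, Hand2, Srf and Prdm16. Gata4, Gata6, Tbx5, Tead1 and Myocd are named only. Each table entry spans 300 bp, and all 300 bp lay in a control region and in a KO region at each of the 5 genes. The sequences run 5′ to 3′ on the strand of the gene and leave out bases that GENCODE places in an exon. Capitals mark matches to 7 consensus motifs, each searched on both strands. GATA factors were searched as GATAAG and the homeodomain of NKX2-5 as TNAAGTG. The T-box motif was searched as GGTGTGA and that of TEAD factors as GGAATG. The CArG box of SRF, the MEF2 box and the motif of estrogen-related receptors (ERR), searched as TCAAGGTCA, complete the set. The letters searched for the CArG and MEF2 boxes are not given here, and other forms of these boxes may lie unmarked in the sequences.
Nkx2-5: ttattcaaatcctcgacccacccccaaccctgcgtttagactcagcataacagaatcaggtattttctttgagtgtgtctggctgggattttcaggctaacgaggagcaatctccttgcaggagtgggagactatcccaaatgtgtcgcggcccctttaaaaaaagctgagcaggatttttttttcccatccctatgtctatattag
Tbx20: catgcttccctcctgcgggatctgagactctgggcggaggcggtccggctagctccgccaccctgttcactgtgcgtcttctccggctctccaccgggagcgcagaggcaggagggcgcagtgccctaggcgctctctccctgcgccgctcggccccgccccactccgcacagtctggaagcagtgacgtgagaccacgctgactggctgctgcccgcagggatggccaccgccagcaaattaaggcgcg
Hand2: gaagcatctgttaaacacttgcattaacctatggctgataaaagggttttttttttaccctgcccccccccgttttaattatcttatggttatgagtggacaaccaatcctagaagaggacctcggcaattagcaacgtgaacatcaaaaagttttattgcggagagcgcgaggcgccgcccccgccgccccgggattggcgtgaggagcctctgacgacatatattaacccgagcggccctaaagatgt
Srf: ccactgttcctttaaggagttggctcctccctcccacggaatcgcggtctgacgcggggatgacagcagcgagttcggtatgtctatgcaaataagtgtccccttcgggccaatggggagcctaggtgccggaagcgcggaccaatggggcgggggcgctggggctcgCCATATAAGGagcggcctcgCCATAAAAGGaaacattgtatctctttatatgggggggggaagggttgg
Prdm16: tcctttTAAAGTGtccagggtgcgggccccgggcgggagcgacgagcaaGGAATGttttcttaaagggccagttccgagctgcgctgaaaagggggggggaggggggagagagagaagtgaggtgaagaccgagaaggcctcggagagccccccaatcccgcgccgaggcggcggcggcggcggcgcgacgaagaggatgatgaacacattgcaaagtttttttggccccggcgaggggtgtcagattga
These stretches lie at chr17:26841609-26841815 (minus strand, Nkx2-5), chr9:24774304-24774553 (minus strand, Tbx20), chr8:57320733-57320982 (plus strand, Hand2), chr17:46556176-46556412 (minus strand, Srf) and chr4:154636874-154637123 (minus strand, Prdm16). The Srf promoter held 2 CArG boxes, CCATATAAGG and CCATAAAAGG, whose first bases lay at -82 and -62 from the start site. A CArG box was present in 1.63% of all 32851 RefSeq promoters. The Prdm16 promoter held TAAAGTG, a match to the NKX2-5 motif (11.5% of all promoters), and GGAATG, the TEAD motif (14.7% of all promoters). No match to any of the 7 motifs was in the Nkx2-5, Tbx20 or Hand2 entries, which says only that these letters are not in these windows. The shares of all promoters were 7.44% for GATA, 3.98% for T-box, 0.557% for MEF2 and 0.423% for ERR. CpG numbers of the 5 entries were 9 in Nkx2-5, 17 in Hand2, 24 in Prdm16, 25 in Srf and 26 in Tbx20, against a median of 7 over all promoters. Their GC content ran from 50.3% in Hand2 to 68.3% in Tbx20, and the median over all promoters was 52.7%.

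A second set of sequences shows every match to the 7 motifs in the central 300 bp of the genotype-only regions of the 10 genes. These regions are where the lists differ outright, and the rest of each region was not searched. Each sequence is the motif with up to 20 bases on each side, read on the plus strand of GRCm38 from that window. None holds an annotated exon base of its gene: all lie in introns, except that of the Tead1 KO-only region, which lies upstream of the gene.
Gata4 KO-only NKX2-5 chr14:63222591-63222637: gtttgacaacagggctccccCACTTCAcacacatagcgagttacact
Gata4 KO-only NKX2-5 chr14:63222787-63222833: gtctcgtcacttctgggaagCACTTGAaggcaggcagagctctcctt
Gata4 KO-only TEAD chr14:63222748-63222793: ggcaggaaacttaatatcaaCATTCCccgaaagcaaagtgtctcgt
Gata4 control-only GATA chr14:63200762-63200803: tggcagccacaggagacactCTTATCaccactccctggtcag
Gata4 control-only TEAD chr14:63200598-63200643: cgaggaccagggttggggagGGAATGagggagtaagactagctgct
Tbx20 KO-only GATA chr9:24739719-24739759: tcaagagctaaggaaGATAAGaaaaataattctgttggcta
Tead1 KO-only NKX2-5 chr7:112676233-112676279: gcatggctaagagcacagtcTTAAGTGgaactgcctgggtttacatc
Tead1 control-only GATA chr7:112724051-112724085: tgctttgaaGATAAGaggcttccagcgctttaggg
Tead1 control-only NKX2-5 chr7:112724194-112724240: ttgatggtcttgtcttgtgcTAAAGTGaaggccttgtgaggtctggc
Tead1 control-only GATA chr7:112726065-112726110: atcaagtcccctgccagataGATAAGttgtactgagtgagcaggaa
Tead1 control-only TEAD chr7:112725835-112725869: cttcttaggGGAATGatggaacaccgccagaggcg
Tead1 control-only NKX2-5 chr7:112782325-112782371: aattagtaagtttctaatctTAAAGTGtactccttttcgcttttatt
Tead1 control-only TEAD chr7:112790353-112790398: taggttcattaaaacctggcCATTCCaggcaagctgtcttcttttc
Myocd KO-only GATA chr11:65193975-65194020: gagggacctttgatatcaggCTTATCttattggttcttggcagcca
Myocd control-only TEAD chr11:65197815-65197860: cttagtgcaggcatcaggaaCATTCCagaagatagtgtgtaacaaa
Prdm16 KO-only NKX2-5 chr4:154371294-154371340: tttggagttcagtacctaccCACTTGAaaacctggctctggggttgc
Prdm16 KO-only TEAD chr4:154371259-154371304: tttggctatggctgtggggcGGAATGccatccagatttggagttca
Prdm16 KO-only TEAD chr4:154393695-154393738: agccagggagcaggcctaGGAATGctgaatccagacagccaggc
Prdm16 KO-only NKX2-5 chr4:154508228-154508274: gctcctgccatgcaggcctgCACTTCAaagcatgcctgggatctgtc
Prdm16 KO-only TEAD chr4:154530809-154530854: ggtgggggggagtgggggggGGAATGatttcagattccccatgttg
Prdm16 control-only NKX2-5 chr4:154343697-154343743: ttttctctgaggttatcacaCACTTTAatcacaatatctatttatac
Prdm16 control-only TEAD chr4:154343871-154343916: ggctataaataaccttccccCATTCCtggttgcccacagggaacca
Prdm16 control-only NKX2-5 chr4:154502372-154502418: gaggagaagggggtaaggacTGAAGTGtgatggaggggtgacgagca
Prdm16 control-only TEAD chr4:154569166-154569211: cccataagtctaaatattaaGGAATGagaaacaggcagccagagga
Matches on the minus strand appear as their reverse complement. Over all regions of the control list at the 10 genes, GATA was present in 13 of 102 central windows (12.7%, 95% Wilson interval 7.60% to 20.6%) against 10.1% of all control regions. In the KO list it was present in 8 of 85 (9.41%, interval 4.85% to 17.5%) against 9.69%. TEAD was present in 20 control windows (19.6%, interval 13.1% to 28.4%) and 12 KO windows (14.1%, interval 8.26% to 23.1%), and the share of all regions was 15.8% in either list. All these intervals cover counting error only, and each held the share of all regions in its list. The NKX2-5 motif was present in 15 windows of each list, 14.7% in control and 17.6% in KO CMs, against 15.7% and 15.6% of all regions. The T-box motif was present in 4 control and 5 KO windows (3.92% and 5.88%, against 3.88% and 3.74% of all regions). A CArG box was present in 0 of 102 control windows and in 1 of 85 KO windows, at Prdm16, against 1.62% and 1.59% of all regions. The MEF2 box as searched was present in 1 control window, at Gata6, and in 0 KO windows, against 1.63% and 1.57%. The ERR motif was present in 2 control windows, both at Prdm16, and in 2 KO windows, at Gata4 and Tead1. All 4 were in shared regions, and 0.969% of control and 1.03% of KO regions held the motif. Among genotype-only regions at the 10 genes, GATA was present in 3 of 21 control-only and 2 of 17 KO-only windows, NKX2-5 in 4 and 4, and TEAD in 6 and 4. Median GC content of the windows was 44% in control-only and 52% in KO-only regions, beside 49% and 50.3% in shared regions of the respective lists. Over all regions it was 45.7% in the control list and 46.7% in the KO list.

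The lists were first checked against their labels. Of the 3483 coding bases of Nrip1 on chromosome 16, 2556 lay in control regions and 0 in KO regions. All 8 CM marker genes had a region over an annotated transcription start site (TSS) in both lists, and their extended gene bodies were covered over 122492 bp in control and 151042 bp in RIP140-null CMs. The longest covered was Actn2, the Z-disc protein alpha-actinin, with 33783 bp and 53473 bp, a log2 ratio of KO over control of 0.66. The median ratio of the 8 CM markers was 0.14, with 6 above 0, and the lowest was -0.25 at Myh6. Of their 35 control regions 8 were control-only, and of 35 KO regions 13 were KO-only, 9 of them at Ryr2. At all protein-coding genes, 27% of control regions were control-only and 20.7% of KO regions KO-only. Of the 6 fibroblast markers, 0 had a region over a TSS in both lists, and Col1a2, Dcn, Tcf21 and Postn had no region in either. Col1a1 had 764 bp and 834 bp, and Pdgfra 796 bp in control CMs alone. Endothelial markers were present: 5 of 6 had a region over a TSS in both lists, with 103572 bp covered in control and 113790 bp in RIP140-null CMs. Their log2 ratios split evenly: 0.56 at Emcn, 0.32 at Pecam1 and 0.31 at Kdr, but -0.06 at Tek, -0.60 at Tie1 and -1.54 at Cdh5, whose TSS lay in a control region and in no KO region. Of their 40 control regions 13 were control-only, and of 30 KO regions 3 were KO-only, against the same 27% and 20.7%. No interval was computed for the counts of marker regions. The longest was Tek in control (37756 bp, with 36176 bp in KO CMs) and Pecam1 in KO CMs (41698 bp, with 33438 bp in control). Of the 5 smooth muscle and pericyte markers, 2 had a region over a TSS in both lists, and Pdgfrb and Rgs5 had none. Their covered length was 14712 bp in control and 10270 bp in RIP140-null CMs, with Myh11 longest at 7526 bp and 7581 bp. Of the 5 macrophage markers, 0 had a region over a TSS in both lists, Csf1r, Adgre1 and Ptprc had no region, and Cd68 was longest at 1173 bp and 4128 bp. Mrc1 had 754 bp in control CMs alone. Myh6, Ryr2, Mrc1, Pdgfra, the endothelial markers other than Pecam1 and, further on, Tagln and Acta2 were named after their values were seen. The lists thus hold regions at genes of endothelial and smooth muscle cells beside those of CMs, and their part in the regions at the 10 genes was not tested.

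All 10 genes carried H3K27ac at a start site in both genotypes, and they were covered more densely than most genes. A region lay over an annotated TSS in both lists at 10 of 10 genes, against 45.9% of the 21938 protein-coding genes of the annotation. Of their 51 annotated TSSs, 40 lay in a control region and 44 in a KO region, and the same 40 were in both. The share of the extended gene body under H3K27ac was above that of the median protein-coding gene with a region (11.4% in control, 12.4% in KO) at all 10 genes in either list. It was over 50% in both lists at Nkx2-5, Gata4, Gata6 and Hand2, 4 of the 10. Neither trait was particular to these genes. All 8 CM markers and all 3 MEF2 genes also had a region over a TSS in both lists. Their median covered shares were 47.6% in control and 60% in KO CMs for the CM markers, and 66% and 66.8% for the MEF2 genes. The widest region over a TSS had a median width of 14847 bp in control and 16476.5 bp in KO CMs over the 10 genes. Over all protein-coding genes with such a region, the medians were 2644 bp and 2883 bp.

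**Figure D1:**
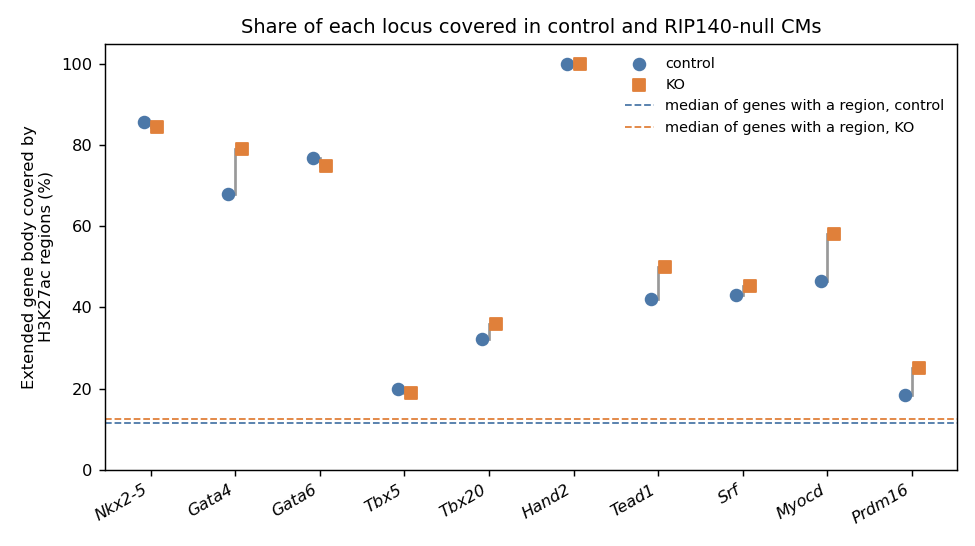
Percent of each extended gene body covered by H3K27ac regions in control CMs (circles) and RIP140-null CMs (squares), 1 value per list. Dashed lines give the medians over protein-coding genes with a region, 11.4% in control and 12.4% in KO CMs, and every point lies above them, from 18.3% (Prdm16, control) to 100% (Hand2, both).

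Between the genotypes, KO CMs had fewer and wider regions at these genes as listed. The order of the numbers depended on the rule: 86 control and 85 KO regions were at the 10 genes with equal numbers of the widest regions kept, and 41 and 49 with regions of 3 or more subpeaks, a filter chosen after seeing the data. Subpeaks are the peaks of single replicates merged into a region. Median width was 2776 bp over the 85 KO regions and 1896 bp over the 102 control regions. Both lists as a whole differed the same way, with medians of 2291 bp and 1846 bp. At 6 genes the KO list had fewer regions than the control list, at 3 it had as many, and at Tbx20 alone it had more. A KO region overlapped 2 or more control regions in 18 of 85 cases (21.2%), against 9.65% of all KO regions. A control region overlapped 2 or more KO regions in 13 of 102 cases (12.7%), against 5.16% of all control regions. These backgrounds were not matched for width, and a wider region can overlap more regions of the other list. The part of width in these shares was not tested, so they are not read as particular to the 10 genes.

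A region sharing 1 bp or more with the other list counts as shared, and any other as genotype-only. At the 10 genes 17 of 85 KO regions were KO-only (20%, interval 12.9% to 29.7%), where 20.7% of KO regions at all protein-coding genes were KO-only. Of the 102 control regions, 21 were control-only (20.6%, interval 13.9% to 29.4%), where 27% were at all protein-coding genes. The share of KO-only regions was thus near its background, and the interval for control-only regions held its background too. Both intervals cover counting error only and treat regions as independent. Tead1 and Prdm16 held 15 of the 21 control-only and 12 of the 17 KO-only regions. Control-only regions outnumbered KO-only regions here, but not under every alternative. At 1000 bp or wider, 17 of 76 KO regions were KO-only and 11 of 82 control regions were control-only. With at least 50% of a shared region covered, the counts were 27 of 85 and 21 of 102. Shares over all regions are not given under these 2 rules, so the turned order is not read as particular to these genes. Control-only regions were narrow, from 508 bp to 1619 bp with a median of 964 bp, and 20 of 21 had 2 subpeaks. KO-only regions measured 669 bp to 3459 bp with a median of 1829 bp, and 12 of 17 had 2 subpeaks.

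Genotype-only and shared regions of the 10 genes were centered in introns equally often, 35 of 38 (92.1%) and 137 of 149 (91.9%). Of the other genotype-only regions, 2 lay downstream of a gene and 1 upstream. Of all 38, 4 touched an annotated exon of the gene. Of these 38, 27 were at Tead1 and Prdm16, which span 568 of the 975 kb searched. Per 100 kb, these 2 genes had 2.64 control-only and 2.11 KO-only regions, and the other 8 had 1.48 and 1.23. As a share of control regions, control-only regions made up 23.4% at these 2 genes and 15.8% at the other 8, against 27% at all protein-coding genes. KO-only regions made up 21.4% and 17.2% of KO regions, against 20.7%. KO-only regions were at 5 of the 10 genes, against 35.2% of protein-coding genes with a region, and control-only regions at 6, against 39.2%. The median number of regions over the 10 genes was 5 in control and 3 in KO CMs, against 2 in either list over protein-coding genes with a region. Nkx2-5, Hand2 and Srf had 2 or fewer in both lists, Tbx20 in control and Tbx5 in KO CMs. The nearest region of the other list lay at a median of 2175 bp from control-only and 2213 bp from KO-only regions, and 3 and 1 of them were within 1000 bp of it.

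**Figure D2:**
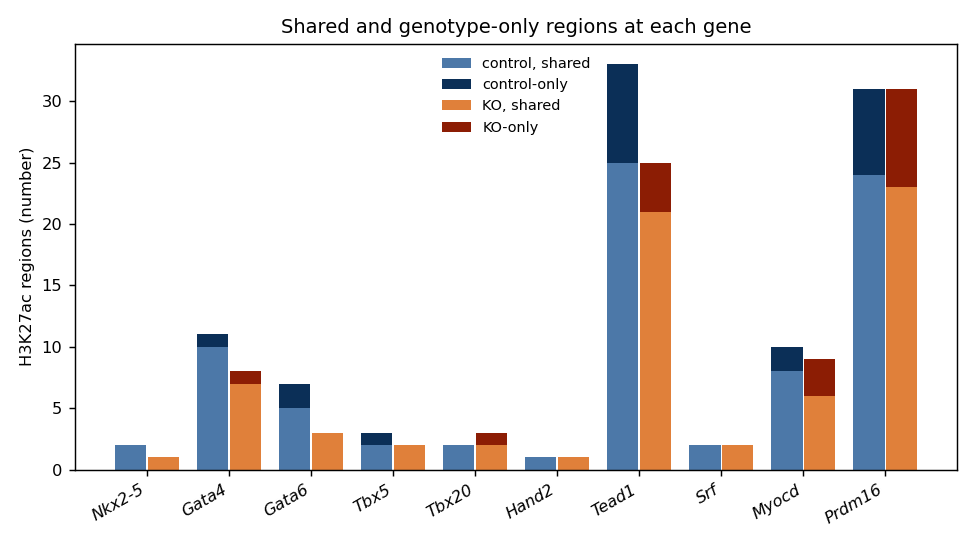
Number of H3K27ac regions at each gene in the control list (left bar) and the KO list (right bar), split into shared regions and those found in 1 genotype only (dark). Tead1 and Prdm16 hold 27 of the 38 genotype-only regions, and Nkx2-5, Hand2 and Srf hold none.

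The length covered at each gene was compared as a log2 ratio of KO over control. Over the 10 genes the median was 0.11, from -0.08 at Tbx5 to 0.45 at Prdm16, with 6 values above 0, 3 below and 1 at 0. Over the 12989 protein-coding genes covered in both lists, the median was 0.08, with quartiles of -0.20 and 0.39. Of the 10 genes, 9 lay between these quartiles and Prdm16 above them. Hand2, Nkx2-5 and Gata6 could not lie above the upper quartile, because too little of their extended gene bodies was uncovered in control CMs. With 50 kb added to each side of the gene bodies, the median of the 10 genes was 0.28. Covered length was over 1.5-fold longer in KO CMs at 0 of 10 genes, against 19.8% of protein-coding genes with a region, and over 1.5-fold longer in control CMs at 0 of 10, against 12.6%. These background shares include genes covered in 1 list alone. A length over 1.5-fold longer in KO CMs could not occur at Gata4, Gata6, Nkx2-5 and Hand2. Control regions already covered 67.9%, 76.9%, 85.7% and 100% of their extended gene bodies. Summed over the 10 genes, 367373 bp (37.7%) were covered in control and 431173 bp (44.2%) in RIP140-null CMs, a log2 ratio of 0.23, where the sum over all protein-coding genes with a region gave 0.07. The sum weighs long genes more than the median does. Of 107318 bp covered in KO CMs alone, 30319 bp (28.3%) lay in KO-only regions, and the rest were wider parts of shared regions. Of 43518 bp covered in control CMs alone, 45.8% lay in control-only regions. The same shares over all protein-coding genes with a region were 35.4% and 49.5%.

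**Figure D3:**
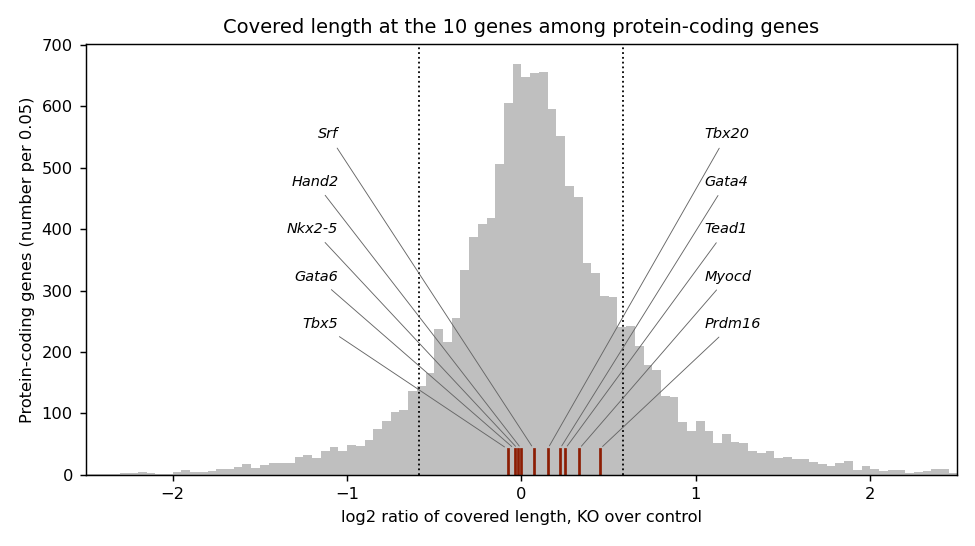
Histogram of the log2 ratio of covered length (KO over control) over 12989 protein-coding genes, in steps of 0.05. Marks on the horizontal axis give the 10 genes, from -0.08 (Tbx5) to 0.45 (Prdm16), all between the dotted lines at 1.5-fold, and 25 genes with lower and 48 with higher values lie outside the axis.

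**Figure D4:**
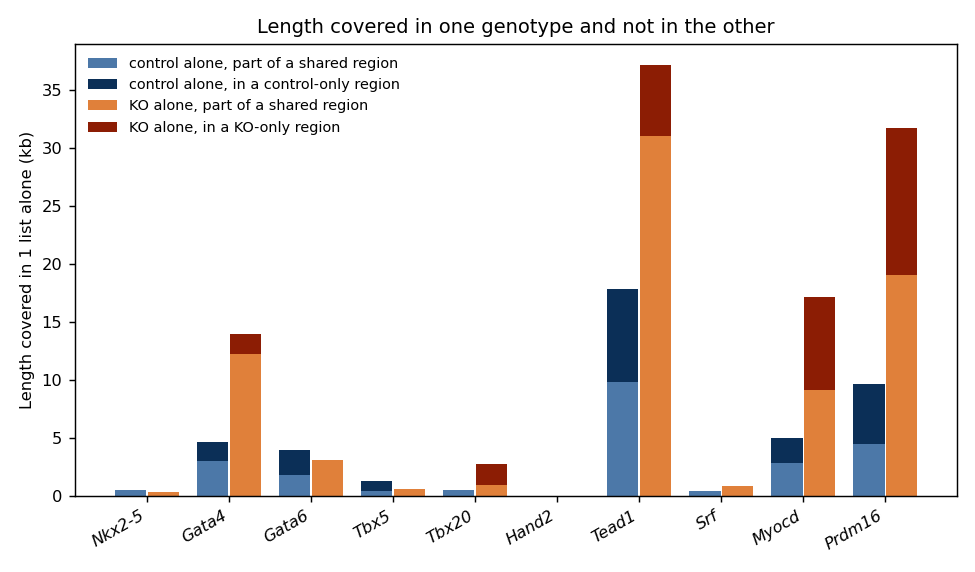
Length (kb) covered in control CMs and not in KO CMs (left bar) or the reverse (right bar) at each gene, split into parts of shared regions (light) and genotype-only regions (dark). At Tead1 37100 bp were covered in KO CMs alone and 17832 bp in control CMs alone, and at Hand2 0 bp in either.

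Nkx2-5, the homeodomain factor that marks cardiac progenitors and stays on in CMs, was nearly identical in both lists. The gene (ENSMUSG00000015579.5, chr17:26838664-26845009, minus strand) lay under a control region of 16560 bp (chr17:26837387-26853946) that covered both of its annotated TSSs. A control region of 1386 bp (chr17:26835701-26837086) followed downstream, after a gap of 300 bp. In KO CMs 1 region of 16732 bp (chr17:26836191-26852922) overlapped both. All 1719 exon bases were covered in either list. Covered length was 14009 bp in control and 13819 bp in KO CMs, a log2 ratio of -0.02, and it was 0.08 with 50 kb added to each side. Under the alternatives it ran from -0.10 to 0.13. The Nkx2.5 promoter drives the Cre of this knockout, and where the Cre allele sits is not stated in the sources used here. Since controls lack Cre, the Cre allele and the deletion of Nrip1 cannot be told apart at this locus.

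Gata4 and Gata6, zinc finger factors that bind GATA sites with Nkx2-5 and T-box factors as partners, were among the most densely covered of the 10. At Gata4 (ENSMUSG00000021944.15, chr14:63198922-63271692, minus strand), 11 control regions covered 56208 bp (67.9%) and 8 KO regions 65555 bp (79.2%), a log2 ratio of 0.22 that ran from 0.12 to 0.38 under the alternatives. The widest region at any of the 10 genes was here: the KO region chr14:63235219-63273308, of 38090 bp with 13 subpeaks, covered 4 TSSs. Only 0.0945% of KO regions were as wide or wider. It overlapped 4 control regions, of which the widest was 19060 bp (chr14:63234189-63253248). These were separated by gaps of 473 bp to 1235 bp, 2768 bp in all. Of the Gata4 regions, 3 KO regions overlapped 2 or more control regions, and 3 control regions overlapped 2 or more KO regions. A KO region of 4350 bp (chr14:63213342-63217691) covered a further TSS, which lay outside the control regions. Gata4 had 1 region of each genotype-only kind, KO-only at chr14:63221876-63223590 (1715 bp) and control-only at chr14:63199844-63201462 (1619 bp). Both were centered in introns, and the control-only region took in 174 coding bases. Both held a TEAD match, shown above, with a GATA match in the control-only region and 2 NKX2-5 matches in the KO-only region.

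**Figure D5:**
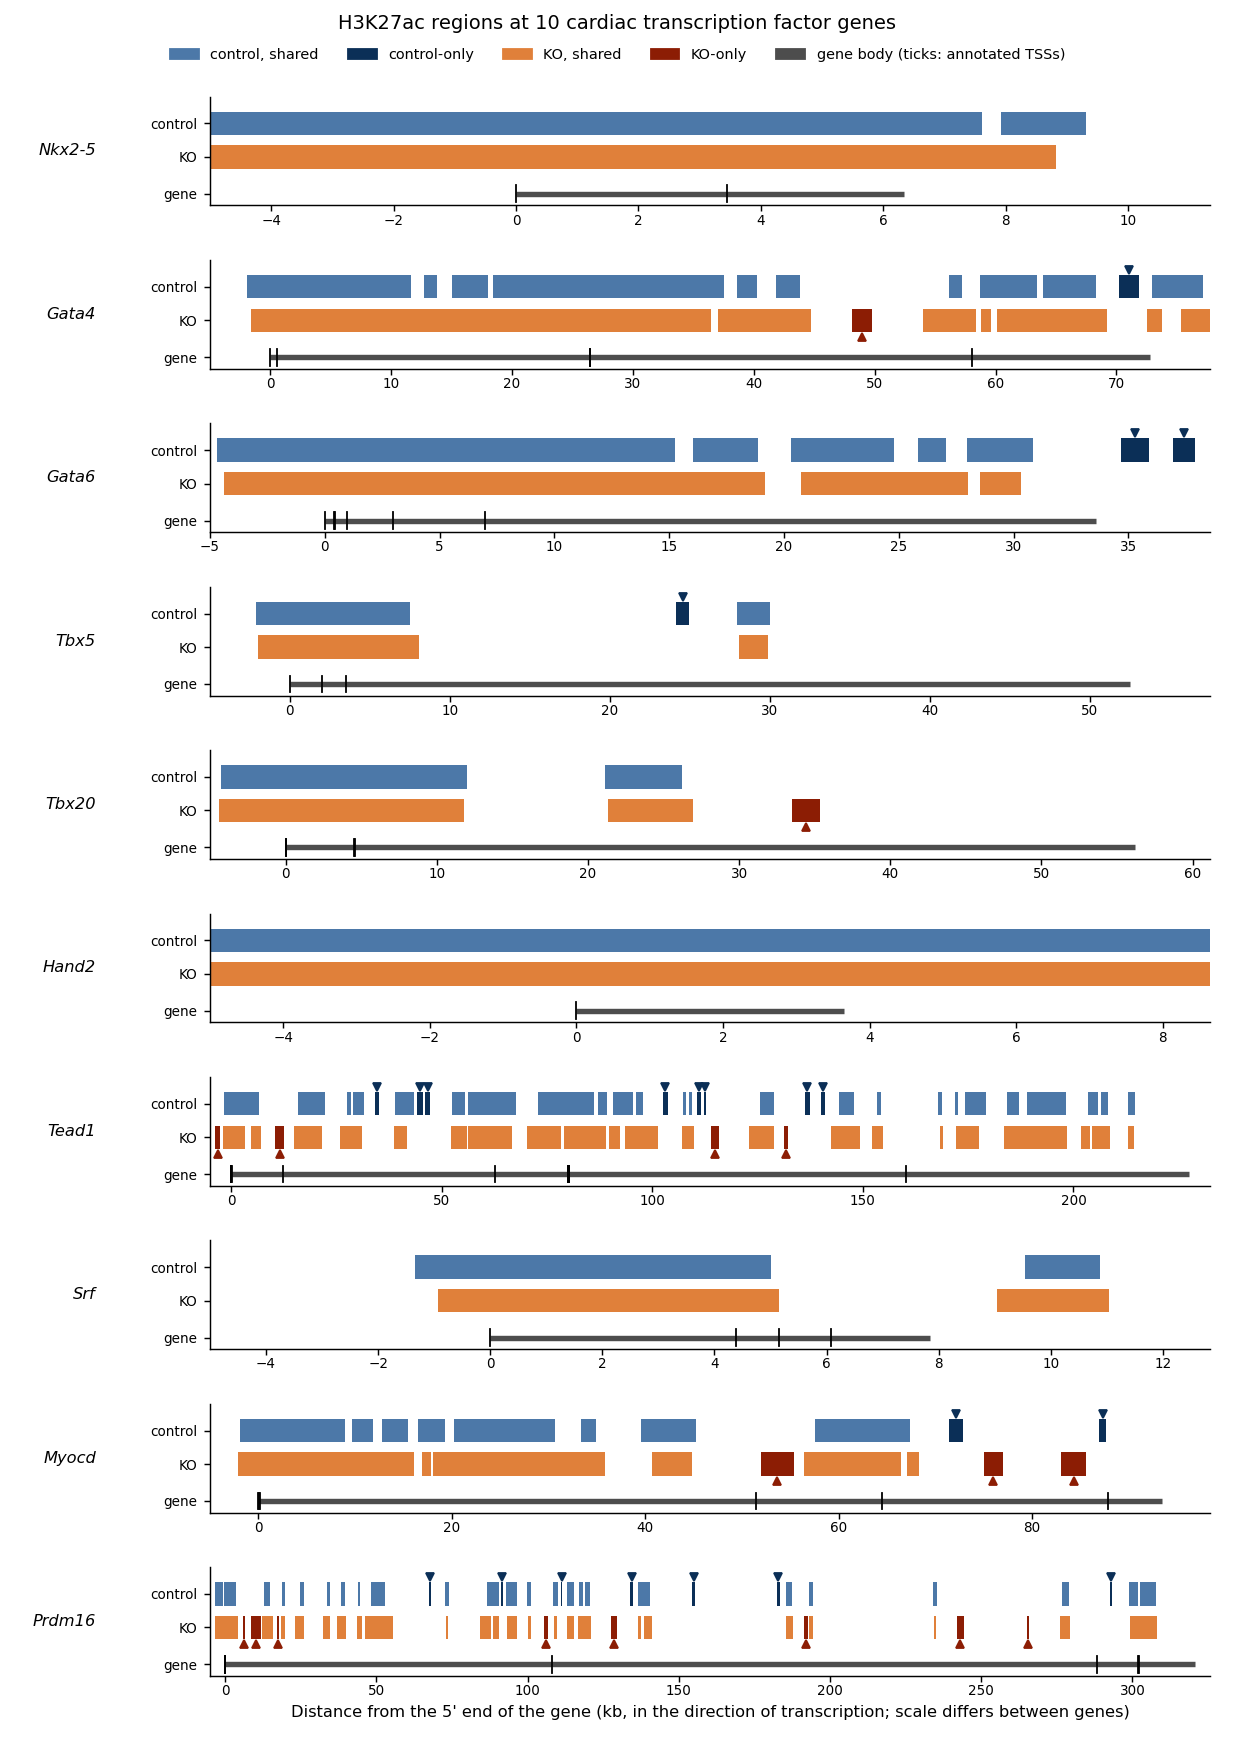
H3K27ac regions of control (upper track) and KO CMs (lower track) over each extended gene body, in kb from the 5′ end of the gene in the direction of transcription, with a scale of its own for each gene. Dark blocks with triangles are genotype-only regions, and at Gata4 the leftmost KO block, 38090 bp wide, overlaps 4 control blocks.

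Gata6 (ENSMUSG00000005836.10, chr18:11052064-11085635, plus strand) had 7 control regions over 33510 bp (76.9%) and 3 KO regions over 32621 bp (74.9%), a log2 ratio of -0.04. The widest region of either list covered all 6 annotated TSSs, with 19941 bp in control CMs (chr18:11047366-11067306) and 23541 bp in KO CMs (chr18:11047679-11071219). It also covered a TSS of 1010001N08Rik, a noncoding gene that runs the other way. The 2 control-only regions, of 1214 bp (chr18:11086766-11087979) and 952 bp (chr18:11089005-11089956), lay downstream of the gene. Without the 5 kb extension, these no longer counted, and the log2 ratio was 0.08. It was -0.29 by the nearest protein-coding TSS and 0.63 with regions of 3 or more subpeaks, so its sign depended on the rule.

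Tbx5, a T-box factor of the left ventricle, atria and conduction system, was the least densely covered in KO CMs of the 10 genes. Tbx5 (ENSMUSG00000018263.11, chr5:119832668-119885219, plus strand) had 3 control regions over 12523 bp (20%) and 2 KO regions over 11840 bp (18.9%), a log2 ratio of -0.08. The region over its 3 annotated TSSs measured 9637 bp in control (chr5:119830543-119840179) and 10074 bp in KO CMs (chr5:119830664-119840737). It also covered a TSS of the long noncoding RNA gene Gm43050. The intron held 1 control-only region of 837 bp (chr5:119856815-119857651), and with regions under 1000 bp left out the log2 ratio was 0.02. With regions of 3 or more subpeaks it was 0.30.

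Tbx20, a T-box factor needed to maintain adult CMs, had 2 control regions over 21404 bp (32.3%) and 3 KO regions over 23699 bp (35.8%), a log2 ratio of 0.15. The gene (ENSMUSG00000031965.15) lies at chr9:24718138-24774303 on the minus strand. The region over its 4 TSSs hardly differed, with 16313 bp in control (chr9:24762288-24778600) and 16221 bp in KO CMs (chr9:24762499-24778719). It also covered the TSS of the long noncoding RNA gene Gm29824. The KO-only region, 1857 bp at chr9:24738940-24740796, was centered in an intron and covered 456 exon bases, 20 of them coding. It made up 67.7% of the 2741 bp covered in KO CMs alone, and it held GATAAG in its central window. With regions of 3 or more subpeaks only, the log2 ratio was -0.40, and it was 0.35 with 50 kb added to each side.

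Hand2, the basic helix-loop-helix factor of the right ventricle and outflow tract in development, was covered from end to end. Its extended gene body (ENSMUSG00000038193.4, chr8:57320983-57324633, plus strand) lay within 1 control region of 23211 bp (chr8:57307689-57330899) and 1 KO region of 23692 bp (chr8:57306634-57330325). All 13651 bp searched were covered in both, so the log2 ratio of 0.00 is at its ceiling there. With 50 kb added to each side it was 0.32. Both regions also covered TSSs of Hand2os1, the antisense noncoding gene that starts within the Hand2 locus and has 24 annotated TSSs there, so H3K27ac of the pair cannot be told apart.

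Tead1, the TEA domain factor through which YAP and TAZ act on DNA, had the most regions in the control list. At Tead1 (ENSMUSG00000055320.17, chr7:112679318-112906807, plus strand), 33 control regions covered 99747 bp (42%) and 25 KO regions 119015 bp (50.1%). The log2 ratio was 0.25, and it ran from 0.22 to 0.48 under the alternatives. Most of the length found in KO CMs alone was part of shared regions: 30991 of 37100 bp. Of the KO regions 7 overlapped 2 or more control regions, and of the control regions 4 overlapped 2 or more KO regions. The widest of the 7 was a KO region of 14921 bp (chr7:112862887-112877807) over 3 control regions. The widest control region measured 13381 bp (chr7:112752134-112765514), covered 6 TSSs and overlapped 2 KO regions.

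The 4 KO-only regions at Tead1 differed in place. That at chr7:112675594-112676735 (1142 bp) lay upstream of the gene. That at chr7:112689783-112692005 (2223 bp) covered the annotated TSS at 112691698, which was in no control region, and it was the 1 genotype-only region over a TSS at the 10 genes. The others were intronic, at chr7:112793376-112795204 (1829 bp) and chr7:112810559-112811473 (915 bp). All 8 control-only regions were intronic, with widths from 537 bp (chr7:112791570-112792106) to 1252 bp (chr7:112723575-112724826). The one at chr7:112713421-112714443 covered the start of the microRNA gene Gm44462, which was in no KO region. The 5 others were at chr7:112725398-112726570, chr7:112781804-112782967, chr7:112789831-112790817, chr7:112815617-112816716 and chr7:112819477-112820279. The bidirectional noncoding gene 2310014F06Rik, next to the 5′ end of Tead1, had a TSS covered in both lists.

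Srf, the MADS box factor that binds CArG boxes in genes of the sarcomere and cytoskeleton, had 2 regions in each list, and all were shared. At Srf (ENSMUSG00000015605.6, chr17:46548329-46556175, minus strand), covered length was 7690 bp (43.1%) in control and 8090 bp (45.3%) in KO CMs, a log2 ratio of 0.07. It was -0.06 when regions were given to the nearest protein-coding TSS and -0.34 with regions of 3 or more subpeaks. The region over its 5′ end, which holds the CArG boxes shown above, measured 6349 bp in control (chr17:46551164-46557512) and 6081 bp in KO CMs (chr17:46551025-46557105). It covered 2 of the 4 annotated TSSs in either list. It also covered the microRNA gene Mir6976, which lies inside Srf. The downstream region, of 1341 bp in control (chr17:46545294-46546634) and 2009 bp in KO CMs (chr17:46545128-46547136), covered a TSS of the neighbouring gene Cul9.

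Myocd encodes myocardin, the SRF coactivator of cardiac and smooth muscle. At Myocd (ENSMUSG00000020542.18, chr11:65176561-65269989, minus strand), 10 control regions covered 48061 bp (46.5%) and 9 KO regions 60241 bp (58.2%). The log2 ratio was 0.33, higher than at 71% of protein-coding genes covered in both lists, and it ran from 0.16 to 0.35 under the alternatives. The region over its 5′ end covered 3 TSSs, with 10872 bp in control (chr11:65260975-65271846) and 18203 bp in KO CMs (chr11:65253905-65272107), where it spanned 3 control regions. Of the 5 smooth muscle and pericyte markers, 3 had a log2 ratio: 0.01 at Myh11, -0.64 at Tagln and -1.85 at Acta2. The part of these cells in the Myocd values was not tested.

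Genotype-only regions at Myocd were all centered in introns. The 3 KO-only regions measured 2603 bp (chr11:65184367-65186969), 1939 bp (chr11:65193034-65194972) and 3459 bp (chr11:65214608-65218066). The last was the widest genotype-only region at the 10 genes, and the first took in 195 coding bases. They made up 8001 of the 17147 bp covered in KO CMs alone. The 2 control-only regions were narrower, with 755 bp (chr11:65182322-65183076) and 1383 bp (chr11:65197148-65198530).

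Prdm16, a zinc finger regulator of compact myocardium that binds the corepressor CtBP, had the highest log2 ratio of the 10. At Prdm16 (ENSMUSG00000039410.16, chr4:154316125-154636873, minus strand), 31 regions in each list covered 60570 bp (18.3%) in control and 82642 bp (25%) in KO CMs. The log2 ratio was 0.45, higher than at 77.9% of protein-coding genes covered in both lists, and it ran from 0.43 to 1.01 under the alternatives. Equal counts thus went with unequal length. The region over its 5′ end and 3 TSSs measured 3852 bp in control (chr4:154633418-154637269), and a second control region of 2681 bp (chr4:154637462-154640142) followed upstream. In KO CMs 1 region of 7764 bp (chr4:154632531-154640294) spanned both. Near the 3′ end, a KO region of 8745 bp (chr4:154328904-154337648) overlapped 2 control regions, of 5493 bp (chr4:154328923-154334415) and 2882 bp (chr4:154335063-154337944). It covered 2 TSSs that lay in the gap of 647 bp between them and so in no control region. The widest KO region, 9499 bp at chr4:154581191-154590689, overlapped a control region of 4668 bp (chr4:154583948-154588615).

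All 15 genotype-only regions at Prdm16 were intronic and held no annotated exon base of Prdm16. Exons of other genes in the locus were not checked. Of the 8 KO-only regions, 3 lay within the first 20 kb of the gene, at chr4:154619003-154619671 (669 bp), chr4:154625142-154628384 (3243 bp) and chr4:154630207-154630961 (755 bp). The 5 others lay deeper in the gene, at chr4:154370953-154371834, chr4:154392662-154395026, chr4:154444285-154445455, chr4:154507241-154509393 and chr4:154530087-154531485, with widths of 882 bp to 2365 bp. The 7 control-only regions were mostly narrower, from 508 bp (chr4:154545146-154545653) to 1080 bp (chr4:154501883-154502962). The 5 between these widths were at chr4:154343495-154344128, chr4:154453538-154454304, chr4:154481483-154482446, chr4:154525324-154525941 and chr4:154568872-154569411. Of other genes that start within the Prdm16 locus, B230104I21Rik and Gm13111 had a TSS covered in both lists, Gm13133 in KO CMs alone and Gm13134 in neither.

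Other cardiac transcription factors and cofactors, 34 in all, were described the same way. Of these, 28 had a region in either list, and 21 had one over a TSS in both. The median log2 ratio of covered length was 0.05 over the 24 genes covered in both lists, with 14 above 0. They held 172 KO regions, 37 of them KO-only (21.5%, against 20.7% at all protein-coding genes), and 216 control regions, 67 of them control-only (31%, against 27%). Of the 28 genes with a region, covered length was over 1.5-fold longer in KO CMs at 4 (14.3%, against 19.8%) and in control CMs at 3 (10.7%, against 12.6%). These counts take in 2 genes in each direction that were covered in 1 list alone.

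By family, the 3 MEF2 genes had log2 ratios of 0.32 (Mef2a), 0.21 (Mef2d) and 0.02 (Mef2c), where 7549 of 12989 protein-coding genes were above 0, and a median of 66% of the extended gene body covered in control CMs. The NK, homeodomain and MEIS group had a median of 0.10 over 6 genes, and TEAD factors and their cofactors 0.15 over 4. Relatives and partners of PRDM16 had a median of -0.14 over 4 genes. Of the SRF cofactors, Mrtfa was at -0.21 and Mrtfb at 0.05. Gata5 had no region in either list, and the FOG cofactor genes Zfpm1 (0.81) and Zfpm2 (-0.30) went opposite ways, with a median of 0.26. The bHLH factors had a median of 0.02 over 2 genes, and 2 are too few to describe a family. Of 4 T-box genes 1 had a value, 0.56. The highest ratios were at Irx3 (1.10), which encodes an Iroquois factor of the conduction system, Zfpm1 (0.81), Tbx3 (0.56), Tead4 (0.43) and Mef2a (0.32). The lowest were at Ehmt1 (-0.70), a histone methyltransferase that binds PRDM16, Zfpm2 (-0.30), Mecom (-0.23), Hey2 (-0.22) and Mrtfa (-0.21). Gata5, Mef2c, Mef2d and Mrtfb were named after their values were seen. Genes covered in 1 list alone have no ratio. Named after their values were seen, these are Tead2 (2012 bp) and Tbx2 (792 bp) in control CMs, and Tead3 (4591 bp) and Tbx18 (1558 bp) in KO CMs.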

How the data were processed

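The 10 genes, the other gene lists and the alternatives were chosen with earlier results of these data known. Per the methods, bowtie2 2.4.2 (GRCm38) and samtools gave deduplicated alignments, from which Homer 4.11.1 called H3K27ac regions per replicate against IgG and merged them. Starts and ends in bp were deposited, 1 list per genotype. On sequences other than the autosomes and sex chromosomes, 21 control and 14 KO regions were dropped. Regions were shared if they overlapped by 1 bp or more, and covered length was counted inside the extended gene body. Every genotype-only region at the 10 genes, the widest shared ones, neighbouring genes with a TSS in a window, and the 5 highest and 5 lowest ratios among other factors with at least 2000 bp covered were to be named, with the longest and the uncovered markers. The functions for covered length, sharing by 1 bp and motif search were tested on simulated data, the last with GATA, TEAD and T-box motifs only. The other functions were not tested this way. Alternatives changed the overlap, width, window, assignment, gene set and TSS. Calculations used Python 3.11.15, scipy 1.17.1 and matplotlib 3.10.9. IgG and single libraries were not analysed here.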

Additional observations from a re-analysis of the deposited data

How the results depend on the processing

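KO-only regions at the 10 genes, 17 as reported, numbered 27 when at least 50% of a shared region had to be covered, 44 with a reciprocal overlap of 50%, and 9 without Prdm16. Control-only regions, 21 as reported, numbered 61 with the reciprocal overlap, 32 by the nearest protein-coding TSS, 12 with equal numbers of the widest regions, 11 with regions at least 1000 bp wide and 13 without Tead1. Regions with 3 or more subpeaks numbered 41 in control and 49 in KO CMs, with 7 control-only and 19 KO-only. That filter and leaving out Tead1 or Prdm16 were chosen after seeing the data. Without Prdm16, 54 KO regions were counted. KO-only regions outnumbered control-only regions with 50% coverage, with either width rule and with the subpeak filter, and not otherwise, with equal counts without Tead1. Shares over all regions under these rules are not given. The median log2 ratio of the 10 genes was 0.28 with 50 kb added to each side and between 0.07 and 0.17 under the others. Of 70 values of single genes, 25 moved by 0.1 or more or changed sign, and 11 changed sign, at Nkx2-5, Gata6, Tbx5, Tbx20 and Srf. At Gata4, Tead1, Myocd and Prdm16 all were above 0. All 10 genes kept a TSS region in both lists in each alternative run for it, 9 of 9 without Nkx2-5. The causes of these shifts were not tested. No paired analysis was possible because each genotype has 1 merged list and no result comes from a test.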

Other observations

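Between 5 kb and 50 kb from the gene bodies, the flanks of the 10 genes held 31 control regions and 33 KO regions. Of these, 4 were control-only (12.9%, against 29.5% of the whole list) and 6 KO-only (18.2%, against 21.5%). At all protein-coding genes the shares were 27% and 20.7%. No interval was computed for these small counts, so they are not read as a difference from the background. At Hand2, whose own locus was covered in full, the flanks had 4 regions in each list, over 8828 bp in control and 16269 bp in RIP140-null CMs, a log2 ratio of 0.88. The flanks of Gata4 had 12303 bp and 19689 bp (0.68), and those of Nkx2-5 16125 bp in 5 control regions and 19205 bp in 9 KO regions (0.25), 2 of them KO-only. Gata6 had the reverse order, with 19923 bp in control and 14685 bp in RIP140-null CMs (-0.44) and 2 control-only regions. The flanks of Myocd gave 0.41, of Tead1 0.16, of Prdm16 -0.22 and of Srf 0.50, the last from 1 region in each list. Tbx5 had no region there in either list. Tbx20 had 1 KO-only region of 3674 bp inside its flanks and no control region. Flanks can hold other genes, and regions there were not tied to any gene.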
